A study of Mus musculus with 2 samples.

Results

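The cells described here were immune cells of the mouse lung that held transcripts of the complement subunits C1qa, C1qb and C1qc. They were chosen by rule from 2 droplet libraries of sorted lung cells. A barcode qualified with at least 500 genes, at most 10% mitochondrial UMIs (unique molecular identifiers, each standing for 1 captured transcript), at least 5 UMIs of Laptm5, Tyrobp, Fcer1g and Ctss together, at least 3 UMIs of C1qa, C1qb and C1qc together, and no UMI of Cdh5 or Epcam. Of 9900 barcodes that passed the limits on genes and mitochondrial UMIs, among 9928 in all, 105 qualified: 85 of 4468 in the bleomycin library and 20 of 5432 in the saline library. They are called C1q cells below, because the values further down only partly bear out the label of monocytes and interstitial macrophages.

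C1q is the recognition part of the first complex of the classical complement pathway, and binds antibody on surfaces, dying cells and some microbes. In the lung its 3 chains are made chiefly by interstitial macrophages, which lie in the tissue around airways and vessels, and by monocytes that are turning into macrophages. Alveolar macrophages lie in the airspaces, clear surfactant and are known for Chil3 (a chitinase-like protein), Ear1 and Ear2 (eosinophil-associated ribonucleases) and Car4, with little C1q in the resting mouse lung. After lung injury, monocytes enter and pass through states that carry markers of both kinds.

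The mice carried Lepr-Cre, a recombinase driven by the leptin receptor gene, and Rosa26-tdTomato, a reporter that Cre switches on permanently, and were 8 to 10 weeks old. One group was given bleomycin, an agent used to cause lung fibrosis, and the other saline, and both groups carried the same alleles. Lungs were digested with collagenase-IV, dispase II and DNase I, and live tdTomato+ cells were sorted before droplet capture. A tdTomato+ sort keeps cells with Lepr promoter activity at present or in their past, so the C1q cells are those that passed this sort and not all such cells of the lung. The sources used here do not give the dose, the day or the number of mice.

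There was 1 library per group, so no comparison below carries a test or a p-value, and a difference between the libraries cannot be told apart from a difference between animals or preparations. The C1q cells held 774822 UMIs after bleomycin and 206945 after saline. A bleomycin C1q cell had 4119, 8090 and 33087 UMIs at the lowest, the median and the highest. A saline C1q cell had 4516, 9521 and 19359. The lowest barcode of all held 4025 UMIs in the bleomycin library and 2310 in the saline library, so cells of under 4025 UMIs could be counted only after saline, and no saline C1q cell lay under it. There were 33 barcodes found in both libraries, and none of them was a C1q cell. Levels are given as UPM, UMIs per 1000000 UMIs summed over a group of cells in 1 library, and square brackets hold exact 95% intervals (Poisson for a level, Clopper-Pearson for a share, conditional binomial for a ratio) that cover counting error only. Ratios are log2 ratios of UPM with 5 UPM added to both sides, which understates the ratio of scarce genes. A gene was called higher or lower only if it had at least 50 UMIs in both groups together, at least 50 UPM in the higher group, UMIs in at least 5 of its cells with no cell holding over 50% of them, and at least a 2-fold ratio.

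The windows printed here are those of C1q and chemokine genes on which the results turn. C1qb and C1qc mark the cells. Ccl12 was found in 10 of 16 bleomycin and 2 of 6 saline C1q cells with Ccl8, a minority of all C1q cells. Of 5 genes looked up in the RefSeq promoter windows of build GRCm38.p6, from 250 bases before to 50 bases after the gene's start, 4 had a window. The capitals mark GAGGAA, a purine-rich core of the kind bound by the myeloid factor PU.1, and TATAAA, the TATA box, on either strand of the window, and no match of one overlapped a match of the other. GAGGAA was found in 28.3% of 32851 windows of 300 bases and TATAAA in 13.6%.
C1qb, chr4:136886151-136886450, minus strand: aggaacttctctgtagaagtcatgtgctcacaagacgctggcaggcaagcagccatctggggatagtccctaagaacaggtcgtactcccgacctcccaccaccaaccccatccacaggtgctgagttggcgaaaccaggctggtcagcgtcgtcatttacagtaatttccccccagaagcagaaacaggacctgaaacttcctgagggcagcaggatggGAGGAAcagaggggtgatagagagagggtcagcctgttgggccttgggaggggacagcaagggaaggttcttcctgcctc
C1qc, chr4:136892865-136893164, minus strand: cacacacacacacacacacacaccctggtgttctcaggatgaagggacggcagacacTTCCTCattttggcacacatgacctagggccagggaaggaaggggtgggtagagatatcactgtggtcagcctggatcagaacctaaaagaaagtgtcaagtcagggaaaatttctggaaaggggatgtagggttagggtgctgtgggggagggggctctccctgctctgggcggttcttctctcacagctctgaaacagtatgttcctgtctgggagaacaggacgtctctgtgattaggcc
Ccl12, chr11:82101595-82101894, plus strand: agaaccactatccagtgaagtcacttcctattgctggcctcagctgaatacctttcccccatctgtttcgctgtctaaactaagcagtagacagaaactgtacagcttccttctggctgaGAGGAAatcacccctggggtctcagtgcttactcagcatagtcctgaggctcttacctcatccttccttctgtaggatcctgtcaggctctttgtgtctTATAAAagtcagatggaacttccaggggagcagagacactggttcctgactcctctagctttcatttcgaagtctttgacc
Ccl8, chr11:82114935-82115234, plus strand: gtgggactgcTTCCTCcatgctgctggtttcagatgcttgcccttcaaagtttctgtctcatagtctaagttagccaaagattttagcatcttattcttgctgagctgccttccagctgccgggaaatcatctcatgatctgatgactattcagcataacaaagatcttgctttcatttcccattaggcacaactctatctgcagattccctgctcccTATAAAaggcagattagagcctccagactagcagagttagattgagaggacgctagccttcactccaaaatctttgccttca
Each of the 4 windows held 1 GAGGAA, on the window's own strand in C1qb and Ccl12 and on the other strand in C1qc and Ccl8. A TATAAA stood 31 bases before the start in Ccl12 and 32 bases before it in Ccl8, and neither C1q window held one. Both chemokine genes lie on chromosome 11 and both C1q genes on chromosome 4. These matches are letters in a window and were not tested as sites of binding.

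The C1q UMIs that chose the cells ranged widely from cell to cell. A bleomycin C1q cell held 3, 57 and 318 UMIs of the 3 chains together at the lowest, the median and the highest, and a saline C1q cell held 5, 30 and 168. At least 10 C1q UMIs were held by 74 of 85 bleomycin cells (87.1% [78.0 to 93.4]) and 16 of 20 saline cells (80.0% [56.3 to 94.3]). Near the limit, 5 bleomycin cells and 1 saline cell qualified with 3 to 5 C1q UMIs, while 30 and 15 immune cells held 1 or 2 and did not. Most C1q cells thus stood well clear of the limit in both libraries. A further 7 bleomycin and 24 saline barcodes had at least 3 C1q UMIs but under 5 UMIs of the 4 immune genes, and were not C1q cells. The requirement for no Cdh5 or Epcam UMI left out 3 further bleomycin cells and 1 saline cell, and all of these values follow from the rule itself.

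The 3 chains came in unequal parts. C1qb had 1, 23 and 105 UMIs per bleomycin cell at the lowest, the median and the highest, and 2, 15 and 68 per saline cell. C1qa had 0, 20 and 124 per bleomycin cell and 0, 10 and 51 per saline cell, and C1qc had 0, 17 and 94 and 1, 4.50 and 49. All 3 chains were seen in 75 of 85 bleomycin cells and 19 of 20 saline cells, so most cells held transcripts of the full set of chains that make up the C1q protein. Of the C1q UMIs, C1qa gave 36.7% [35.6 to 37.8], C1qb 37.8% [36.6 to 38.9] and C1qc 25.5% [24.5 to 26.5] after bleomycin. The same shares after saline were 30.7% [27.7 to 33.9], 45.5% [42.2 to 48.9] and 23.7% [21.0 to 26.7]. The 3 chains summed to 9187 UPM in C1q cells and 5.93 UPM in fibroblasts of the bleomycin library, and to 4276.5 UPM in C1q cells and 8.52 UPM in fibroblasts of the saline library, where fibroblasts are barcodes with under 5 immune UMIs and at least 10 UMIs of Col1a1, Col1a2 and Dcn.

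Markers of the named cell types were present in part of the cells only. Csf1r, the receptor for the macrophage growth factor CSF1, was found in 67 of 85 bleomycin cells and 15 of 20 saline cells, against 126 of 309 and 230 of 676 alveolar macrophages. Cx3cr1, the fractalkine receptor of monocytes and interstitial macrophages, was found in 25 of 85 and 9 of 20 C1q cells, against 9 of 309 and 6 of 676 alveolar macrophages. Fibroblasts, which should lack both genes, had a Cx3cr1 UMI in 92 of 3592 cells after bleomycin, at a median of 13674.5 UMIs per cell, and in 24 of 3002 after saline, at a median of 7174.5, and a Csf1r UMI in 58 and 17 cells. With each cell thinned to 2000 UMIs, a Cx3cr1 UMI was left in 5 of 85 bleomycin and 2 of 20 saline C1q cells, against 4 of 309 and 5 of 676 alveolar macrophages, and a Csf1r UMI in 36 and 6 C1q cells, against 53 and 117 alveolar macrophages. Thinned fibroblasts kept a Cx3cr1 UMI in 21 and 8 cells and a Csf1r UMI in 9 and 4 cells. The share with a UMI was thus above that of fibroblasts for both genes at both depths, while Cx3cr1 was not seen in most C1q cells. Ly6c2, which marks classical monocytes, was seen in 4 bleomycin cells and 2 saline cells only, and 1 cell held most of its 22 bleomycin UMIs.

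Genes of mast cells, basophils and lymphocytes were rare or at 0 in the C1q cells, while some genes of dendritic cells and neutrophils were seen. None of the 6 mast cell and basophil markers had a UMI in either library. Of 12 lymphocyte markers 9 were at 0 after bleomycin and 10 after saline, the CD3 chains Cd3e, Cd3d and Cd3g among them. Of 12 dendritic cell markers 7 were at 0 after bleomycin, with Flt3, Zbtb46, Xcr1 and Clec9a among them, and 4 after saline. The sums of the lymphocyte list were 28.4 and 67.7 UPM, and those of the dendritic cell list 333 and 87.0 UPM, after bleomycin and after saline. Of 8 neutrophil markers 3 were at 0 after bleomycin (Retnlg, Cxcr2 and Mmp9) and 5 after saline, S100a8 and S100a9 being at 0 there too. Their sums were 285 and 401 UPM in C1q cells and 117 and 747 UPM in fibroblasts of those libraries. S100a8 was seen in 40 of 85 bleomycin cells, and G0s2 had 44 UMIs in 12 of 85 cells after bleomycin and 78 UMIs in 13 of 20 cells after saline (log2 ratio -2.63), with 739 UPM in saline fibroblasts. The part of neutrophil RNA in these values was not tested.

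Alveolar macrophage and fibroblast RNA, by contrast, was present in many C1q cells, and unequally in the libraries. At least 5 UMIs of Chil3 and Ear2 together were held by 50 of 85 bleomycin cells (58.8% [47.6 to 69.4]) and 5 of 20 saline cells (25.0% [8.66 to 49.1]). At least 10 UMIs of the fibroblast genes Col1a1, Col1a2, Col3a1 and Dcn together were held by 16 of 85 (18.8% [11.2 to 28.8]) and 13 of 20 (65.0% [40.8 to 84.6]). Only 24 bleomycin and 4 saline cells held neither. The cells with at least 10 fibroblast UMIs also had more UMIs, with medians of 12937 after bleomycin and 10930 after saline, against 7959 and 7052 in the other C1q cells of those libraries. In alveolar macrophages the same share was 10.0% [6.92 to 13.9] after bleomycin and 6.07% [4.39 to 8.14] after saline. Their median UMIs per cell were 6869 and 4241, against 8090 and 9521 in all C1q cells, and the limit of 10 was not scaled to depth. The part of depth in this gap was not tested. No doublet caller was used, and a barcode with 2 cells and a cell with taken-up or free RNA cannot be told apart here. The counts of genes against saline cells and against alveolar macrophages are therefore also given without the C1q cells that held at least 10 fibroblast UMIs.

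**Figure D1:**
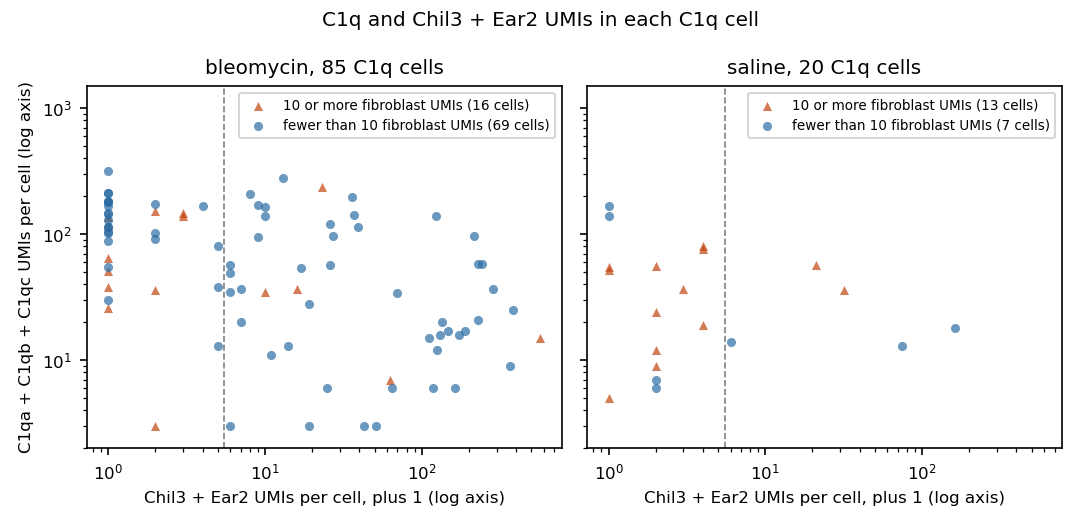
UMIs of C1qa, C1qb and C1qc together (vertical, log axis) against UMIs of Chil3 and Ear2 together plus 1 (horizontal, log axis) in each C1q cell, for bleomycin (left) and saline (right). Triangles are cells with 10 or more fibroblast UMIs, 16 after bleomycin and 13 after saline, and the dashed line marks 5 Chil3 and Ear2 UMIs, to the right of which lie 50 bleomycin cells and 5 saline cells.

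C1q cells took a larger share of the sorted cells in the bleomycin library. They were 1.90% [1.52 to 2.35] of 4468 barcodes after bleomycin and 0.368% [0.225 to 0.568] of 5432 after saline. Among immune cells they were 19.1% [15.6 to 23.1] of 444 after bleomycin and 2.68% [1.65 to 4.11] of 746 after saline. Alveolar macrophages were the smaller share there, with 6.92% [6.19 to 7.70] of barcodes after bleomycin and 12.4% [11.6 to 13.4] after saline. Saline alveolar macrophages had 2322 UMIs at the lowest and 4241 at the median, and the lowest bleomycin barcode held 4025. Cells under that depth were thus counted after saline only, in the shares of barcodes and of immune cells alike. Thinning the barcodes does not bring back such bleomycin cells, and their part in these shares was not tested. With every barcode thinned to 2000 UMIs before the rule was applied, 75 bleomycin cells (1.68%) and 9 saline cells (0.166%) qualified. The order of the libraries was the same without the cells that held at least 10 fibroblast UMIs, of which 69 and 7 remained, and without those that held at least 5 Chil3 and Ear2 UMIs, of which 35 and 15 remained. Shares of sorted cells depend on the sort and on what else was captured, and the part of either was not tested.

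Within the bleomycin library the C1q cells fell along a range of Chil3 and Ear2 UMIs, with a median of 8 per cell and a highest value of 568. This split was chosen after the values had been seen. The 50 cells with at least 5 of these UMIs also carried other alveolar macrophage genes. Ear1 had 550 UMIs in 20 of 50 cells there and no UMI in 35 cells with fewer, a difference of at least 152-fold against a floor of 3 UMIs over the group. Marco, a scavenger receptor for particles, had 133 UMIs in 10 of 50 cells against no UMI in 35 cells, at least 36.8-fold higher, and all 10 cells with Marco also held Ear1. Plet1, a surface protein of alveolar macrophages, had 90 UMIs in 19 of 50 cells against no UMI in 35 cells, at least 24.9-fold higher. Of 18 alveolar macrophage markers 11 met the count minima, and all 11 were higher in the 50 cells, with a median log2 ratio of 2.63. Of all 1896 genes that met the minima, 4.01% were higher and 7.33% lower, with a median of -0.04. Chil3 and Ear2, which are among the 11, made the split and are no result. Ear1, Marco and Plet1, also among them, met the minima through the UMIs of the 50 cells alone. The count of 11 and its median are therefore a description.

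Some lipid genes were also higher in the 50 cells with Chil3 and Ear2 UMIs. Fabp4, a fatty acid carrier, had 198 [158 to 246] UPM there and 14.2 [4.62 to 33.2] UPM in the other 35 (log2 ratio 3.40). Apoc1, an apolipoprotein, had 239 [194 to 289.8] UPM and 25.6 [11.7 to 48.6] UPM (2.99), and Abcg1, a cholesterol exporter, 184 [146 to 229.9] UPM and 25.6 [11.7 to 48.6] UPM (2.63). Of 15 genes of lipid-associated macrophages 6 were higher and none was lower. Of 9 matrix and protease genes 2 were higher (Mmp12 and Plaur), 2 were lower (Sparc and Timp1) and 5 did not pass, with a median of -0.30. Mmp12, the macrophage elastase, had 647 [573 to 728] UPM and 194 [150.3 to 245] UPM (1.72), with 43.4% of its UMIs in 1 of the 50 cells. Ccr2, the receptor by which monocytes leave the marrow, was higher as well, with 139 [106 to 179.7] UPM and 56.9 [34.8 to 87.9] UPM (1.22).

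Of 13 interstitial macrophage markers that met the minima, 3 (Cx3cr1, Gas6 and Maf) were lower in the 50 cells than in the 35 with fewer Chil3 and Ear2 UMIs, none was higher and 10 did not pass, with a median log2 ratio of -0.82. Some genes outside that list were lower there as well. Ccl12, a monocyte-attracting chemokine, had 6 UMIs in 3 of 50 cells against 173 UMIs in 16 of 35 cells (log2 ratio -4.70). Cx3cr1 had 7 UMIs in 6 of 50 cells against 55 UMIs in 19 of 35 cells (-2.91), and Ms4a7, a membrane protein of tissue macrophages, 45 UMIs in 15 of 50 cells against 194 UMIs in 29 of 35 cells (-2.32). Cd72, an inhibitory receptor, and Fcrls, a scavenger-like receptor, were lower in the 50 cells too, with log2 ratios of -3.56 and -2.28. Several genes did not pass in either direction. Apoe had 15435 [15063 to 15814] UPM in the 50 cells and 20220.3 [19753 to 20696] UPM in the 35 (-0.39), Trem2 567 and 595 UPM (-0.07), Spp1 4931 and 3509 UPM (0.49) and Cd74 9416 and 12795 UPM (-0.44). Fibroblast RNA also moved with this split, since 8 of 9 fibroblast markers were lower in the 50 cells and 102 of the 139 lower genes were at a higher level in fibroblasts than in the 35 cells. Its part in the other differences was not tested.

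Counts of single cells, for pairs chosen after the values had been seen, showed which of these genes met in the same cell. Of 18 bleomycin cells with Folr2, a folate receptor of tissue macrophages, 16 held Pf4 (platelet factor 4), 14 held Ms4a7 and 11 held Ccl8, while 1 held Mmp12 and none held Marco. Of 16 cells with Ccl8, a chemokine for monocytes and T cells, 10 held Ccl12. Of 25 cells with Cx3cr1, 15 held Ccr2 and 13 held Mgl2, a galactose-type lectin, while 2 held Gpnmb and none held Marco or Apoc4. Of 20 cells with Mmp12, 14 held Ccr2 and 11 held Mgl2, and none held Ear1. Arg1, the arginine-splitting enzyme, was in 23 cells, of which 17 had at least 5 Chil3 and Ear2 UMIs and 14 held Gpnmb, a glycoprotein of lipid-laden macrophages. These counts describe 85 cells of 1 library in which scarce transcripts are missed, and none of the pairs was tested.

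**Figure D2:**
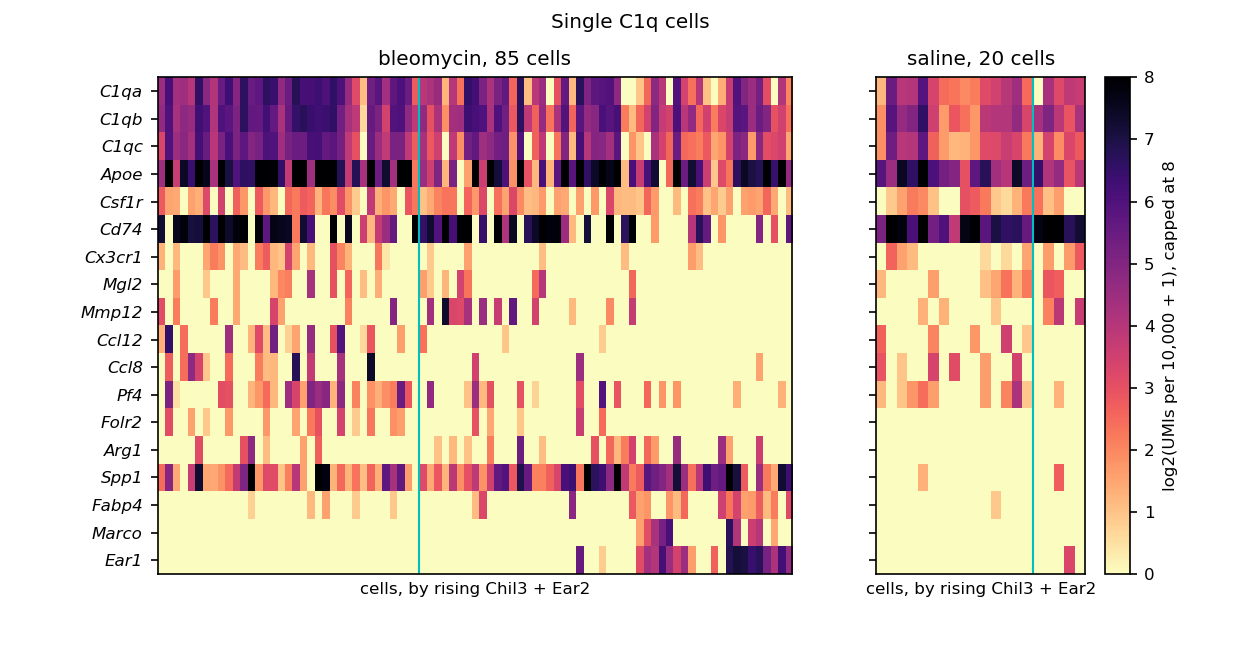
Levels of 18 genes (rows) in each C1q cell (columns) as log2 of UMIs per 10000 plus 1, capped at 8, for bleomycin (left) and saline (right), with cells ordered by their Chil3 and Ear2 UMIs and a line where these reach 5. Ear1 and Marco are filled only right of the line, Marco in bleomycin cells alone, Ccl12 and Folr2 mostly left of the line, and Spp1 in 81 of 85 bleomycin cells and 2 of 20 saline cells.

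Bleomycin C1q cells differed from saline C1q cells in many genes. Of 2382 genes that met the count minima, 284 were higher (11.9%) and 217 lower (9.11%) after bleomycin, and the median log2 ratio over all of them was 0.09. The higher and the lower genes differed in how they related to fibroblast RNA. Of the 217 lower genes 180 were at a higher level in saline fibroblasts than in saline C1q cells, while 31 of the 284 higher genes were at a higher level in bleomycin fibroblasts than in bleomycin C1q cells. Without the cells holding at least 10 fibroblast UMIs, which left 69 bleomycin and 7 saline cells, 252 genes were higher and 64 lower, and 129 of the 284 and 16 of the 217 passed again. Without the cells holding at least 5 Chil3 and Ear2 UMIs, which left 35 and 15 cells, 149 were higher and 129 lower, and 109 and 116 passed again. Most lists below are given for all C1q cells and then for these 2 smaller sets, named by their low fibroblast UMIs and by their low Chil3 and Ear2 UMIs.

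C1q itself was at a higher level after bleomycin. C1qa had 3372 [3244 to 3504] UPM in bleomycin cells and 1314 [1163 to 1480.2] UPM in saline cells (log2 ratio 1.36 [1.18 to 1.54]), C1qc 2344 [2237 to 2454] UPM and 1015 [882 to 1162] UPM (1.20), and C1qb 3470.5 [3341 to 3604] UPM and 1947 [1762 to 2147] UPM (0.83 [0.68 to 0.99]), the last below 2-fold. The rule required these genes, so the values are a description. Without the cells holding at least 10 fibroblast UMIs none of the 3 passed, with log2 ratios of 0.89, 0.56 and 0.39. Of 11 other complement genes 4 were higher, which were Cfp (properdin), C5ar1 (the C5a receptor) and the complement receptor chains Itgam and Itgb2, and 5 were lower, C1ra, C1s1, C3 and C4b among them. In the cells with low fibroblast UMIs none of the 5 passed, C1ra and C1s1 having no saline UMI left and 4 and 3 UMIs after bleomycin, and of the 4 higher genes Cfp and C5ar1 passed again and Itgam and Itgb2 did not (0.34 for Itgb2). C3, the central protein of all complement pathways, had 78.7 [60.2 to 101] UPM and 991 [859.6 to 1136] UPM (-3.57 [-4.09 to -3.23]), with 1198 UPM in saline fibroblasts, and did not pass without the cells holding at least 10 fibroblast UMIs (-3.27).

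Spp1 had the highest log2 ratio of the 2382 genes. It encodes osteopontin, a secreted matrix protein and ligand of integrins and CD44 that marks macrophages of fibrotic lung. A bleomycin cell held 0, 7 and 367 Spp1 UMIs at the lowest, the median and the highest, and a saline cell 0, 0 and 8. The level was 4286 [4142 to 4434] UPM in bleomycin C1q cells and 43.5 [19.9 to 82.6] UPM in saline C1q cells (log2 ratio 6.47 [5.70 to 7.75]), with UMIs in 81 of 85 and 2 of 20 cells. The cells of the libraries overlapped, since the highest saline cell had 8 UMIs and 47 of 85 bleomycin cells held no more than that, while the second highest saline cell had 1 UMI and 74 bleomycin cells held more than 1. Bleomycin fibroblasts held 4928 UPM and bleomycin alveolar macrophages 3103 UPM of Spp1, against 11.3 and 315 UPM in the saline library, and the part of free Spp1 RNA in the C1q cell level was not tested.

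The lipid-associated macrophage genes were mostly higher after bleomycin: 11 of 15 that met the minima were higher and none lower, with a median log2 ratio of 1.53. In the cells with low fibroblast UMIs 9 of 14 were higher, and with low Chil3 and Ear2 UMIs 5 of 10, all of them among the 11. Apoe, an apolipoprotein that carries cholesterol out of macrophages, held 0, 61 and 1219 UMIs per bleomycin cell at the lowest, the median and the highest and 3, 43.5 and 288 per saline cell, and its level was 17605 [17311 to 17903] UPM and 7074 [6717 to 7446] UPM (1.31 [1.24 to 1.39]). Trem2, a lipid-sensing receptor, had 579 [527 to 636] UPM and 188 [134 to 258] UPM (1.60 [1.15 to 2.13]). Fabp5, a fatty acid carrier, had 1009 [939.8 to 1083] UPM and 140.1 [93.8 to 201] UPM (2.80 [2.31 to 3.44]), and Gpnmb 342 [302 to 386] UPM and 24.2 [7.85 to 56.4] UPM (3.57 [2.58 to 5.46]). Single cells of the libraries overlapped for all 4 genes. Without the cells holding at least 10 fibroblast UMIs, Apoe, Fabp5 and Gpnmb passed again (1.31, 1.39 and 1.31) and Trem2 did not (0.80). Single cells weighed on Gpnmb, of which 1 bleomycin cell held 38.9% of the UMIs, and without the deepest C1q cell of each library, an alternative chosen after seeing the data, its log2 ratio was 2.82.

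Lysosomal genes were higher too: 10 of 18 that met the minima passed and none was lower, with a median of 1.30, Ctss among the 10 being a gene of the rule. With low fibroblast UMIs 8 of 18 were higher, all among the 10, and with low Chil3 and Ear2 UMIs 10 of 17, of which 8 were among them. Ctsd, an aspartic protease of the lysosome, had 3034 [2913 to 3159] UPM in bleomycin cells and 372 [294 to 465] UPM in saline cells (log2 ratio 3.01 [2.70 to 3.37]), with 0, 8 and 476 UMIs per bleomycin cell and 0, 3 and 17 per saline cell. Ctsk, a collagen-degrading cathepsin, had 247 [213 to 284] UPM and 14.5 [2.99 to 42.4] UPM (3.69 [2.52 to 6.38]). Atp6v0d2, a subunit of the proton pump that acidifies lysosomes, had 142 [117 to 171] UPM and 14.5 [2.99 to 42.4] UPM (2.91 [1.71 to 5.59]), and Cd68, a lysosomal membrane glycoprotein, 514 [464 to 567] UPM and 106 [66.6 to 161] UPM (2.22 [1.65 to 2.96]). All 4 were also higher in the cells with under 10 fibroblast UMIs, with log2 ratios of 1.90 for Ctsd, 2.03 for Atp6v0d2 and 1.05 for Cd68, and with Ctsk, which had no saline UMI left, at least 5.34-fold higher against a floor of 3 UMIs over the 7 saline cells. Among the 35 and 15 cells with fewer than 5 Chil3 and Ear2 UMIs, 1 bleomycin cell held over 50% of the UMIs of Ctsd, Fabp5 and Gpnmb, so that these did not pass there (2.92, 2.91 and 3.83).

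Receptors for antibody and particles were higher after bleomycin. Of 6 Fc receptor genes 5 passed and none was lower, with a median of 1.72, Fcer1g among the 5 being a gene of the rule, and 4 of the 5 passed again in each of the smaller sets. Fcgr2b, the inhibitory IgG receptor, had 475 [428 to 526] UPM in bleomycin cells and 82.1 [47.9 to 132] UPM in saline cells (2.46 [1.83 to 3.33]). The activating receptors Fcgr1, Fcgr3 and Fcgr4 had log2 ratios of 1.85, 1.83 and 1.61. Clec4n, the fungal sensor Dectin-2, had 538 [488 to 592] UPM and 43.5 [19.9 to 82.6] UPM (3.49 [2.69 to 4.77]), and Msr1, a scavenger receptor, 87.8 [68.2 to 111] UPM and 9.66 [1.17 to 34.9] UPM (2.66 [1.27 to 6.26]). Mrc1, the mannose receptor, was seen in 71 of 85 and 9 of 20 cells, at 299 [262 to 341] UPM and 91.8 [55.3 to 143] UPM (1.65 [1.03 to 2.46]). Of 8 pattern recognition genes 3 were higher and none lower, against 4 of 8 with low fibroblast UMIs and 3 of 5 with low Chil3 and Ear2 UMIs.

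Some genes had UMIs in bleomycin C1q cells and none in the 20 saline cells. Arg1 had 190 UMIs in 23 of 85 cells after bleomycin, which is at least 16.9-fold higher against a floor of 3 UMIs over the saline cells. S100a8, a calcium-binding alarmin, had 155 UMIs in 40 of 85 cells (at least 13.8-fold), Ear10 142 UMIs in 17 of 85 cells (at least 12.6-fold), Marco 133 UMIs in 10 of 85 cells (at least 11.8-fold) and Apoc4 81 UMIs in 16 of 85 cells (at least 7.21-fold). Folr2 had 52 UMIs in 18 of 85 cells (at least 4.63-fold), and Lrg1, a secreted leucine-rich glycoprotein, 74 UMIs in 33 of 85 cells (at least 6.59-fold). Ear10, Ear1 and Marco had no UMI in either library once the cells with at least 5 Chil3 and Ear2 UMIs were left out, so their differences lie wholly in those cells. Wfdc17, a small secreted protein of the whey acidic protein family, was more evenly spread, with UMIs in 78 of 85 and 13 of 20 cells. Its level was 3043 [2922 to 3169] UPM and 164 [114 to 229.6] UPM (4.17 [3.72 to 4.74]), and it passed without either set of cells (4.74 and 4.04).

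Alveolar macrophage markers as a list had 9 of 11 higher after bleomycin and none lower, with a median of 2.05, and with low fibroblast UMIs 7 of 11. Their summed level was 8216 UPM in bleomycin C1q cells, with a range per cell of 0 to 693 UMIs per 10000, and 1967 UPM in saline C1q cells, with a range of 0 to 337. Fabp1 was the marker at 0 after bleomycin, and Siglecf, Marco and Cidec were at 0 after saline. Among the cells with fewer than 5 Chil3 and Ear2 UMIs the sums were 586 and 385 UPM. Chil3 and Ear2 are on this list and made the split, so the lower sums follow in part from it and are no result. Of 14 interstitial macrophage markers 6 were higher and 1, Gas6, was lower, with a median of 0.92. Among the 6, C1qa and C1qc were genes of the rule. With low fibroblast UMIs 7 of 12 were higher and none lower, and none of the 7 was a C1q gene. With low Chil3 and Ear2 UMIs 6 of 11 were higher, C1qa, C1qb and C1qc among them, and Gas6 was lower. In each of these sets 4 of the first 6 passed again. The 7 held Ccl8 and Pf4, and 6 of 6 saline cells with Ccl8 and 9 of 10 with Pf4 had been left out there. F13a1, a transglutaminase subunit, had 157 [131 to 188] UPM and 19.3 [5.27 to 49.5] UPM (2.74 [1.63 to 4.92]), while Pf4 (450.4 and 227 UPM, 0.97) did not pass with all C1q cells but did with low fibroblast UMIs (3.25, 3 saline UMIs) and with low Chil3 and Ear2 UMIs (1.01).

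Secreted signals were mixed. Of 17 chemokine genes 3 were higher (Ccl3, Ccl6 and Ccl9) and 2 lower (Cxcl10 and Cxcl14), with a median of 0.80. With low fibroblast UMIs 9 of 15 were higher, Ccl3, Ccl6, Ccl2, Ccl7, Ccl8 and Ccl12 among them. With low Chil3 and Ear2 UMIs 4 of 13 were higher, and none was lower in either set. Leaving out the cells with at least 10 fibroblast UMIs took away 6 of 6 saline C1q cells with Ccl8. It also took away 4 of 5 with Ccl12 and 9 of 10 with Pf4, so few such saline cells were left. Ccl3, which attracts monocytes, had 172 UMIs in 37 of 85 cells after bleomycin and 4 UMIs in 3 of 20 cells after saline (3.22 [2.14 to 5.41]). Of 8 chemokine and leukocyte receptors 2 were higher and none lower, and none passed in either of the smaller sets. Ccr1, a receptor for Ccl3, had a log2 ratio of 1.38 on 5 saline UMIs, which was -0.047 without the cells holding at least 10 fibroblast UMIs. Of 10 cytokines 4 were higher and 2 lower, against 3 and 3 of 9 with low fibroblast UMIs and 1 and 0 of 6 with low Chil3 and Ear2 UMIs. Il1rn, which blocks the interleukin-1 receptor, had 95.5 [75.0 to 119.9] UPM and 14.5 [2.99 to 42.4] UPM (2.37 [1.12 to 5.03]), while Il1b, an agonist of that receptor, had 67.1 [50.1 to 88.0] UPM and 275 [209 to 357] UPM (-1.96 [-2.61 to -1.47]). Il1b was at 0.858 UPM in bleomycin fibroblasts and 0.869 UPM in saline fibroblasts, and it was lower in the cells with under 10 fibroblast UMIs as well (-3.59, 7 saline cells). In the cells with low Chil3 and Ear2 UMIs neither passed, with log2 ratios of 2.41 for Il1rn and -0.96 for Il1b. Il1rn had 3 UMIs in all after saline. Retnla, a secreted resistin-like protein, had 48 UMIs in 7 of 85 cells after bleomycin and 237 UMIs in 7 of 20 cells after saline, but 1 saline cell held 65.4% of its UMIs, so it was not called.

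With all C1q cells, antigen presentation genes did not differ by 2-fold, apart from 1, but class II genes were lower after bleomycin among the cells with low fibroblast UMIs. Cd74, the class II chaperone, held 0, 53 and 517 UMIs per bleomycin cell at the lowest, the median and the highest and 10, 143 and 390 per saline cell. A Cd74 UMI was seen in 57 of 85 and 20 of 20 cells, so cells without it were found after bleomycin only, at levels of 10948 [10717 to 11184] UPM and 14231 [13722 to 14754] UPM overall (-0.38 [-0.44 to -0.32]). The class II chains H2-Aa, H2-Ab1 and H2-Eb1 had log2 ratios of -0.80, -0.64 and -0.81, with UMIs in 50, 54 and 53 of 85 bleomycin cells and in all 20 saline cells. Of 7 class II genes only Cd83, which slows the turnover of class II, was lower (-1.15 [-1.61 to -0.74]), and the median was -0.74. In the 69 and 7 cells with low fibroblast UMIs all 7 were lower, with a median of -1.28, Cd74 (-1.04), H2-Aa (-1.42), H2-Ab1 (-1.18), H2-Eb1 (-1.32) and H2-DMb1 (-1.36) among them. With low Chil3 and Ear2 UMIs none of the 7 passed. None of 6 class I genes passed, with a median of -0.05, but Psmb8, an immunoproteasome subunit, was lower with low fibroblast UMIs (-1.01).

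Of the identity markers given with the rule, Csf1r and Cx3cr1 did not pass between the libraries. Csf1r had 253 [219 to 291] UPM after bleomycin and 198 [142 to 269] UPM after saline (0.34 [-0.14 to 0.88]), and Cx3cr1 80.0 [61.3 to 103] UPM and 91.8 [55.3 to 143] UPM (-0.19 [-0.96 to 0.63]). Both intervals include 0, but the direction of Cx3cr1 depended on the cells. Its log2 ratio was -1.28 [-2.36 to -0.18] with low fibroblast UMIs, on 10 saline UMIs, and 0.96 [0.11 to 2.00] with low Chil3 and Ear2 UMIs, on 13, and it was called in neither set. Ccr2 (102 and 135 UPM, -0.39) and Adgre1, which encodes F4/80 (161 and 126 UPM, 0.35), did not pass either. Of 12 macrophage transcription factors none was higher and 1, Id3, was lower. Id3 did not pass with low fibroblast UMIs, where Maf was higher, and Id3 and Irf8 were lower with low Chil3 and Ear2 UMIs.

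Among the genes lower after bleomycin were several of other cell types. Gsn, an actin-severing protein, had 585 [532 to 641] UPM in bleomycin C1q cells, 8481 [8088 to 8887] UPM in saline C1q cells and 17539.8 UPM in saline fibroblasts (-3.85 [-4.01 to -3.71]). The epithelial transcripts Sftpc and Scgb1a1, for a surfactant protein and a club cell protein, were seen in all 20 saline C1q cells and had log2 ratios of -5.13 and -4.74. Their levels were 532 and 855 UPM in saline C1q cells and 926 and 848 UPM in saline fibroblasts, a class not known to make them. The part of free RNA in these differences was not tested. Rbp4, a retinol carrier, had 9.03 [3.63 to 18.6] UPM and 488 [398 to 593] UPM (-5.13 [-7.11 to -4.66]), with 426 UPM in saline fibroblasts. Of 11 fibroblast markers 7 were lower and none higher, with a median of -1.61. Their summed level was 10987 UPM in bleomycin and 18536 UPM in saline C1q cells, with ranges per cell of 8.65 to 755 and 9.72 to 419 UMIs per 10000. Of the 12 markers on the list only Cthrc1 was at 0, after saline.

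The immediate early and dissociation list had 15 of 22 genes lower and none higher after bleomycin, with a median of -1.27. With low fibroblast UMIs 6 of 20 were lower, of which 4 were among the 15, and with low Chil3 and Ear2 UMIs 15 of 22, of which 14 were. Egr1 had 120.0 [96.9 to 147] UPM and 904 [779 to 1043] UPM (-2.86 [-3.29 to -2.55]) and Hspa1a 332 [292 to 375] UPM and 1299.9 [1149 to 1465] UPM (-1.95 [-2.22 to -1.72]). Saline fibroblasts held 1432 UPM of Egr1 and 1097 UPM of Hspa1a, and neither gene passed in the cells with low fibroblast UMIs (-1.71 and -1.44, each in 2 of 7 saline cells). The part of handling in these differences was not tested. Of 8 interferon response genes 3 were lower, Gbp2 and Ifitm3 among them, and none higher, and none passed in either of the smaller sets. Gbp2, an interferon-induced GTPase, had a log2 ratio of -2.23, which was -1.23 and -1.90 in those sets.

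**Figure D3:**
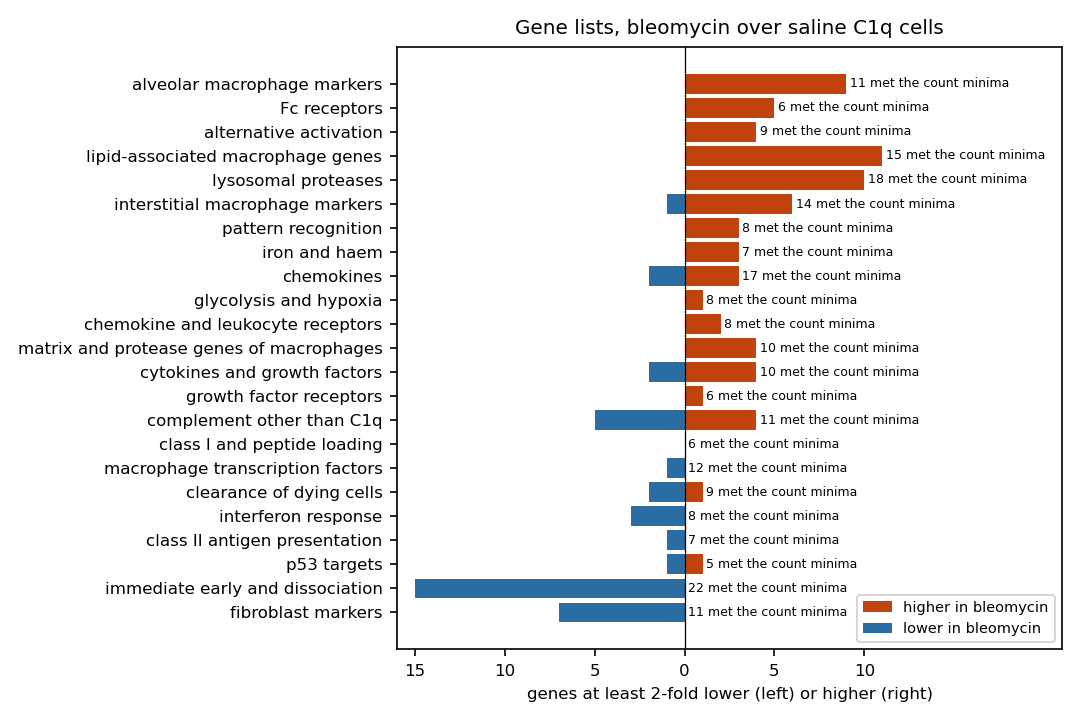
Number of genes of each list at least 2-fold higher (right) or lower (left) in bleomycin than in saline C1q cells, for lists with 5 or more genes that met the count minima, ordered by median log2 ratio, with that number beside each bar. Lipid-associated genes reach 11 of 15 higher and immediate early genes 15 of 22 lower.

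**Figure D4:**
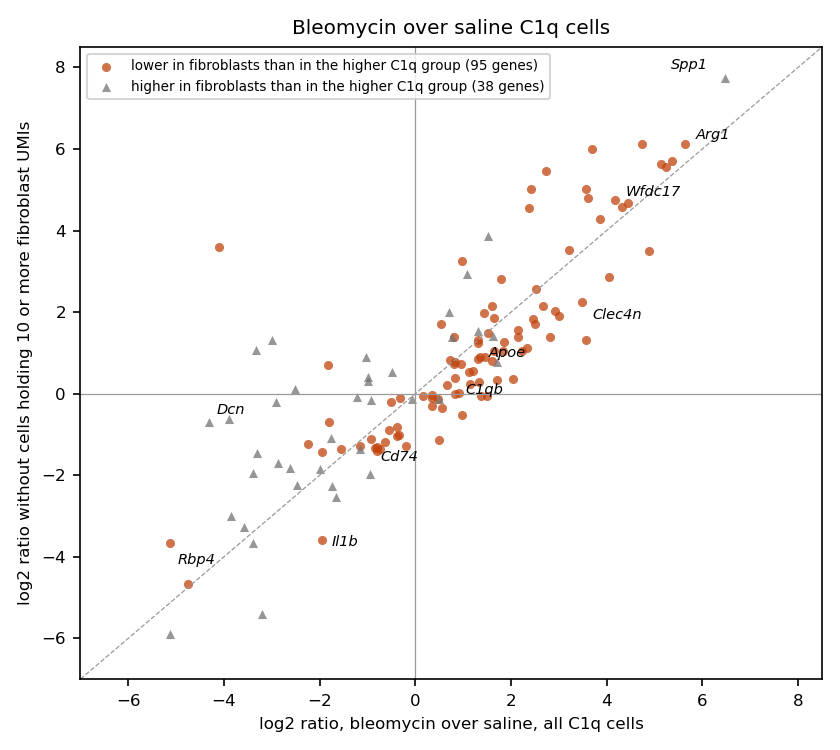
Log2 ratio of bleomycin over saline for the genes named by rule, with all C1q cells (horizontal) and without the cells holding 10 or more fibroblast UMIs (vertical), with 69 bleomycin and 7 saline cells left. Spp1, Wfdc17 and Apoe lie near or above the dashed line of equal ratios, while Dcn, among the lower genes, lies far from it, and the circle at the upper left is Retnla.

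Set against alveolar macrophages of the same library, immune cells with no C1q UMI and at least 5 Chil3 and Ear2 UMIs, the C1q cells had 188 genes higher (6.85%) and 196 lower (7.14%) of 2745 after bleomycin. After saline they had 509 higher (16.2%) and 565 lower (18.0%) of 3135, and 366 of the 509 were at a higher level in saline fibroblasts than in saline C1q cells. Without the C1q cells holding at least 10 fibroblast UMIs the counts were 159 higher and 258 lower after bleomycin and 109 higher and 708 lower after saline. In both libraries 110 genes were higher, which is 58.5% of those higher after bleomycin and 21.6% of those higher after saline. The number lower in both was 152, or 77.6% and 26.9%. The classes were set by C1q, Chil3 and Ear2 UMIs of the same cells, so these values are a description.

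Apoe separated the C1q cells from alveolar macrophages in both libraries. After bleomycin it had 17605 [17311 to 17903] UPM in C1q cells and 279.9 [259 to 302] UPM in alveolar macrophages (log2 ratio 5.95 [5.86 to 6.09]), and after saline 7074 [6717 to 7446] UPM and 416 [394 to 439] UPM (4.07 [3.98 to 4.20]). Fibroblasts held 1263 UPM of it after bleomycin and 3274 UPM after saline. Maf, a transcription factor of tissue macrophages, had log2 ratios of 2.58 after bleomycin and 3.03 after saline. Ccr2 had 2.07 and 3.55. All of these passed in both libraries.

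Class II genes were higher in C1q cells than in alveolar macrophages of both libraries, 5 of 7 each time and none lower, with medians of 2.40 after bleomycin and 1.83 after saline. Cd74 had 10948 [10717 to 11184] UPM in C1q cells and 2067 [2009 to 2126] UPM in alveolar macrophages after bleomycin (2.40 [2.35 to 2.46]), and 14231 [13722 to 14754] UPM and 3992 [3924 to 4061] UPM after saline (1.83 [1.78 to 1.89]). H2-Eb1 had log2 ratios of 2.89 and 2.94, and H2-Aa of 2.49 and 2.38. Median log2 ratios over all genes that met the minima were -0.04 and -0.05.

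Chemokines set the bleomycin C1q cells apart from the alveolar macrophages beside them. Of 16 chemokine genes 10 were higher and none lower, with a median of 3.18. Ccl8 had 271 UMIs in 16 of 85 cells of the C1q class and no UMI in 309 cells of the alveolar macrophages, at least 274-fold higher, with 48.0% of the UMIs in 1 cell. Ccl12 had 179 UMIs in 19 of 85 cells against 2 UMIs in 2 of 309 cells (5.33), and Pf4 349 UMIs in 38 of 85 cells against 8 UMIs in 7 of 309 cells (5.76). Of all UMIs of the chemokine genes with promoters printed above, alveolar macrophages of this library thus held 2. Ccl2, the main ligand of CCR2, had 101 UMIs in 31 of 85 cells against 50 UMIs in 25 of 309 cells (2.36), with 99.7 UPM in fibroblasts against 130.4 UPM in C1q cells. After saline 7 of 15 chemokines were higher and 5 lower, with a median of 1.04, against 1 higher and 7 lower of 13 with low fibroblast UMIs, and Pf4 (47 UMIs in 10 of 20 cells against 22 UMIs in 17 of 676 cells) did not pass because 1 cell held 53.2% of its UMIs.

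Other lists held fewer genes that passed between bleomycin C1q cells and bleomycin alveolar macrophages. Of 10 matrix and protease genes 4 were higher and none lower, of 8 pattern recognition genes 3 were higher and none lower, and of 9 genes for the clearance of dying cells 1 was higher and 1 lower. Folr2 had 52 UMIs in 18 of 85 cells against no UMI in 309 cells, at least 52.5-fold higher. Arg1 had 190 UMIs in 23 of 85 cells against 4 UMIs in 2 of 309 cells (5.22), Mgl2 94 UMIs in 19 of 85 cells against 2 UMIs in 2 of 309 cells (4.43) and C3ar1, the receptor for C3a, 74 UMIs in 37 of 85 cells against 2 UMIs in 2 of 309 cells (4.10). Mmp12 had 441 [396 to 491] UPM and 32.4 [25.5 to 40.5] UPM (3.58 [3.41 to 4.15]). Cx3cr1 (2.61 [2.43 to 3.95]) and Csf1r (1.60 [1.36 to 1.96]) passed as well. Ly6c2, with UMIs in 4 of 85 C1q cells and 7 of 309 alveolar macrophages, did not meet the minima. After saline Csf1r had 198 [142 to 269] UPM in C1q cells and 97.1 [86.8 to 108] UPM in alveolar macrophages and stayed just below 2-fold (0.99 [0.52 to 1.50]), and Cx3cr1, with 31 UMIs in both groups, did not meet the minima. Of 13 interstitial macrophage markers 12 were higher after bleomycin and none lower, with a median of 3.59, the 3 C1q genes of the rule being among them. After saline 7 of 10 were higher, the 3 C1q genes again among them, and 2, Cbr2 and Mrc1, lower, with a median of 3.58. With low fibroblast UMIs 3 of 7 were higher there, all of them among the 7 higher genes, and 2 lower.

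Alveolar macrophage genes were lower in C1q cells of both libraries, and by more after saline. Of 17 markers 13 were lower and 1, Ear1, was higher after bleomycin, with a median of -1.90. After saline all 18 were lower, with a median of -4.20, or -3.97 with genes at 0 set to their bound. Chil3 and Ear2, which chose the alveolar macrophages and are no result here, were among the 18, and Chil3 was among the 13. Car4, a carbonic anhydrase, had 31.0 [19.8 to 46.1] UPM in C1q cells and 572 [542 to 603] UPM in alveolar macrophages after bleomycin, and 14.5 [2.99 to 42.4] UPM and 502 [478 to 526] UPM after saline (-4.70). Plet1 had log2 ratios of -2.75 and -5.00, and Ctsk of -1.93 and -3.99. Krt79, a keratin of alveolar macrophages, had 1 UMI in 1 of 85 cells against 327 UMIs in 125 of 309 cells after bleomycin (-4.52). Fabp1 had no UMI in 85 cells against 149 UMIs in 75 of 309 cells after bleomycin, at least 16.4-fold lower, and Cidec, a lipid droplet protein, no UMI in 20 cells against 737 UMIs in 415 of 676 cells after saline, at least 15.5-fold lower. The difference between the libraries in these ratios was not tested, and C1q cells with at least 5 Chil3 and Ear2 UMIs were the larger share after bleomycin. Without those cells Ear1 turned to a negative log2 ratio of -5.35 after bleomycin and Ear10, a ribonuclease of the same family that had 4.64, to -0.60.

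Lipid-associated genes gave no single direction against alveolar macrophages. After bleomycin 3 of 15 were higher (Apoe, Trem2 and Abca1) and 5 lower, with a median of 0.16, and after saline 1 of 16 was higher and 10 were lower, with a median of -1.50. Spp1 had 4286 UPM in C1q cells and 3103 UPM in alveolar macrophages after bleomycin (0.47 [0.41 to 0.53]), below 2-fold, and 43.5 and 315 UPM after saline (-2.72 [-3.99 to -1.93]), where it was lower. Trem2 had 1.11 [0.95 to 1.30] after bleomycin and 0.68 [0.19 to 1.19] after saline, the second below 2-fold.

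**Figure D5:**
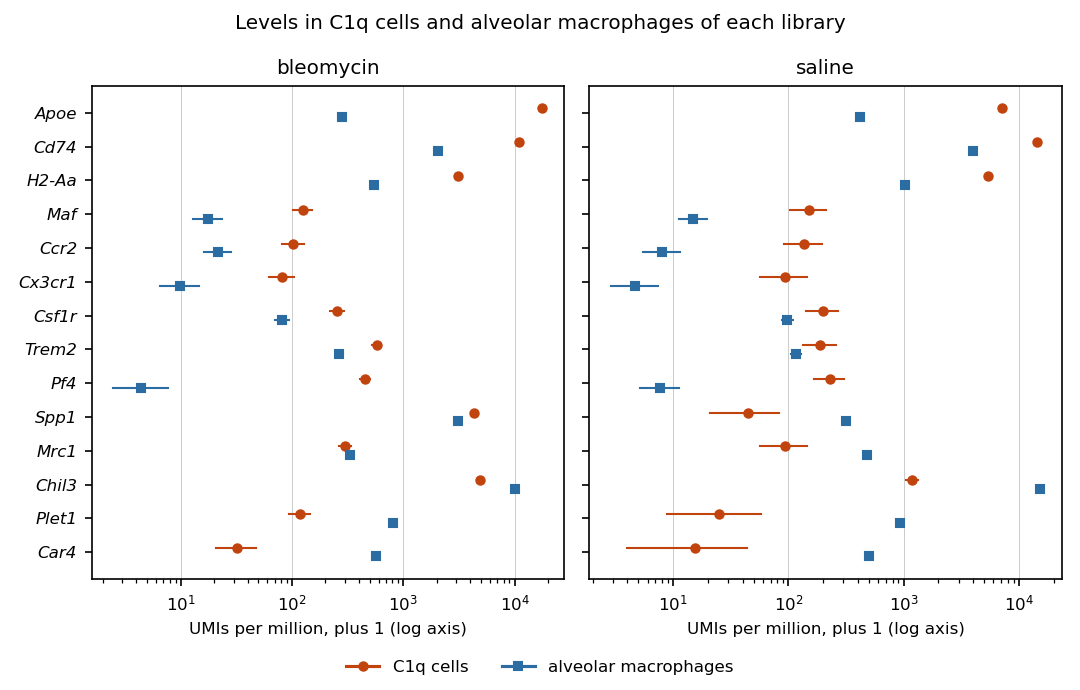
Levels of 14 genes in C1q cells (circles) and alveolar macrophages (squares) of the bleomycin library (left) and the saline library (right), as UPM plus 1 on a log axis, with bars for the exact 95% Poisson interval. Apoe, Cd74 and Maf lie to the right in C1q cells of both libraries, and Chil3, Plet1 and Car4 in alveolar macrophages, which were chosen in part by Chil3.

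Lepr transcripts, whose promoter drove the Cre, were scarce in C1q cells. A Lepr UMI was found in 10 of 85 bleomycin C1q cells (11.8% [5.79 to 20.6]) and 7 of 20 saline C1q cells (35.0% [15.4 to 59.2]), at 40.0 [27.2 to 56.8] UPM and 43.5 [19.9 to 82.6] UPM. With each cell thinned to 2000 UMIs the counts were 6 of 85 and 2 of 20. Alveolar macrophages had a Lepr UMI in 81 of 309 and 213 of 676 cells. Bleomycin fibroblasts, at a median of 13674.5 UMIs, had a Lepr UMI in 155 of 3592 cells. Saline epithelial cells had it in 6 of 194 at a median of 7546.5 UMIs, or 1 of 194 after thinning. These epithelial cells passed the same sort, and the part of free RNA in the Lepr UMIs of any class was not tested. The bleomycin library held only 4 epithelial cells, so no such share is given for it. All 10 bleomycin C1q cells with Lepr were among the 50 with at least 5 Chil3 and Ear2 UMIs, and 8 of them held Ear1. In the saline library the C1q cell level was close to that of saline fibroblasts (46.4 UPM), and the interval of the bleomycin to saline ratio (-0.11 [-1.23 to 1.14]) includes 0.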

How the data were processed

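The deposited files are filtered count matrices, whole-number UMI counts per gene and barcode that the authors made with Cell Ranger 2.1.1 on mm10, per the submitters' processing notes, from 10x 3' v2 libraries per the labels' protocols. Each library was read as 1 sample. Barcodes with under 500 genes or over 10% mitochondrial UMIs were left out (5 bleomycin, 23 saline), classes were cut by the rules given above, and UMIs were summed per class (Python 3.11.15, numpy 2.4.6, scipy 1.17.1). Symbols on 2 rows were kept as separate rows. No doublet caller and no correction for free RNA was used. The members and gene lists were chosen with earlier results of these data known. The text names, per comparison, the 10 genes with the highest and the 10 with the lowest called ratio that stood at least 2 times over the lowest level in the other classes, up to 4 genes per list, and the markers. Some genes that the rule picks are not reported here. The summing and calling steps were tested on simulated data. Alternatives left out cells with fibroblast or Chil3 and Ear2 UMIs, thinned cells to 2000 UMIs, and changed the C1q minimum, the prior, the scaling and the count minima. Sequences are from RefSeq promoter windows of GRCm38.p6.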

Additional observations from a re-analysis of the deposited data

Results flagged for a closer look

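In 5 genes the ratio of C1q cells to alveolar macrophages passed 2-fold in opposite directions in the libraries; the difference between the libraries was not tested. Ear1 had a log2 ratio of 1.81 after bleomycin and -4.72 after saline, and Cbr2, a carbonyl reductase of airway cells and interstitial macrophages, 3.29 after bleomycin and -1.28 after saline. Ear1 was held by 20 of 85 bleomycin C1q cells and 1 of 20 saline C1q cells. Dcn had -1.49 after bleomycin and 1.88 after saline, Gstm1 -1.53 and 1.58, and Igfbp6 -1.13 and 2.23. Without the C1q cells that held at least 10 fibroblast UMIs, the saline log2 ratios were -1.86 for Dcn, -0.89 for Gstm1 and -0.96 for Igfbp6, so these 3 were then negative in both libraries.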

How the results depend on the processing

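No paired analysis was possible because each group has 1 library and no test was made. Of 60 other values of 8 counts and shares, 43 stayed within 1.5 times the reported count or inside its interval. The share of C1q cells was 0.783% after bleomycin without cells holding 5 or more Chil3 and Ear2 UMIs, and after saline 0.129% without cells holding 10 or more fibroblast UMIs and 0.166% with barcodes thinned. For bleomycin over saline, the higher and lower counts were 149 and 129 without the Chil3 and Ear2 cells, 112 and 47 thinned, 573 and 508 with minima of 20 UMIs and 20 UPM, and 1474 and 1546 with no minima, and the lower count was 64 without the fibroblast-UMI cells. Against alveolar macrophages of the bleomycin library, 316 genes were lower without the Chil3 and Ear2 cells and 88 higher thinned. In the saline library the higher count was 109 without the fibroblast-UMI cells, 113 with such alveolar macrophages left out too, chosen after seeing the data, and 267 thinned. Of 1776 other values of 209 genes and lists, 11 changed sign after a call. Without the fibroblast-UMI cells these were Ccr1 (-0.047) for bleomycin over saline and, against saline alveolar macrophages, Dcn (-1.86), Gstm1 (-0.89), Igfbp6 (-0.96) and Gas6 (-0.53). With such alveolar macrophages left out too, Dcn had -0.79, Gstm1 -0.76 and Igfbp6 -0.23. Ear10 (-0.60) and Ear1 (-5.35) did so against bleomycin alveolar macrophages without the Chil3 and Ear2 cells, and Ccl2 (-2.52) against saline alveolar macrophages thinned. The cause was not tested. With 20 saline C1q cells, a gene seen at 43.5 UPM there rests on 9 UMIs, which limits every ratio to saline.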

Other observations

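Some gene groups not described above also set C1q cells apart from alveolar macrophages. Of 7 interferon response genes that met the minima 4 were higher after bleomycin (Ifi27l2a, Ifitm2, Ifitm3 and Zbp1) and of 10 after saline 8 were higher, with medians of 1.12 and 1.15 and none lower. Without the C1q cells holding 10 or more fibroblast UMIs 2 of 7 were higher after bleomycin, and 2 of 9 were higher and 1 lower after saline. Of the macrophage transcription factors, Pparg, which drives the alveolar macrophage programme, had 21.9 [12.8 to 35.1] UPM in C1q cells and 84.8 [73.4 to 97.4] UPM in alveolar macrophages after bleomycin (log2 ratio -1.74), and 19.3 [5.27 to 49.5] UPM and 114 [103 to 126] UPM after saline (-2.29). Bhlhe41, which helps to maintain alveolar macrophages, was lower in C1q cells as well (-1.56 and -2.01). Axl, a receptor for dying cells, was lower too, and its ligand Gas6 was higher, at 82.6 [63.6 to 105] UPM and 36.2 [28.9 to 44.8] UPM after bleomycin (1.09) and 493 [402 to 598] UPM and 58.5 [50.5 to 67.3] UPM after saline (2.97). Saline fibroblasts held 769 UPM of Gas6, and without the C1q cells holding 10 or more fibroblast UMIs its saline log2 ratio was -0.53.

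Between the libraries, some iron and matrix genes of the C1q cells differed. Of 7 iron and haem genes 3 were higher after bleomycin and none lower, of which only Hmox1 passed again in the cells with under 10 fibroblast UMIs (2.57, 2 saline UMIs). Hmox1, which breaks down haem, had 219 [188 to 255] UPM in bleomycin cells and 33.8 [13.6 to 69.7] UPM in saline cells (2.53 [1.62 to 4.03]), and Ftl1, the ferritin light chain, 21045 [20723 to 21370.4] UPM and 8461 [8069 to 8867] UPM (1.31 [1.24 to 1.39]), with a log2 ratio of 0.85 in the cells with under 10 fibroblast UMIs. Blvra, a biliverdin reductase, had 0.54 there. Of 10 matrix and protease genes 4 were higher and none lower, and Fn1, fibronectin, had 1122 [1048 to 1199] UPM and 362 [285 to 454] UPM (1.62 [1.29 to 1.99]), with 2816 UPM in bleomycin fibroblasts and 409 UPM in saline fibroblasts. Fn1 was higher in the cells with under 10 fibroblast UMIs as well (1.42).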
